A study of Arabidopsis thaliana with 7 samples.

Results

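Of the 22746 probe sets on each array, 5 selected as jasmonate synthesis and response genes were followed. They were picked by identifier with earlier results of these data known, so the counts of them below are descriptions: 252618_at for LOX2 (AT3G45140), 249208_at for AOS (AT5G42650), 245928_s_at for VSP1 and VSP2 (AT5G24780 and AT5G24770, called VSP here), 249052_at for PDF1.2 (AT5G44420) and 265053_at for the jacalin lectin gene AT1G52000. The platform's gene table paired 2 of these 5 probe sets with a gene, PDF1.2 and AT1G52000. The names of the other 3 are those under which the probe sets were selected, and the arrays hold nothing here to check them against. The suffix of 245928_s_at marks a probe set shared by several transcripts, so VSP1 and VSP2 cannot be told apart. AT1G52000 was selected with the jasmonate genes, but the files do not tie it to the hormone.

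The study asked which genes act downstream of the flowering promoter SOC1, a transcription factor with a MADS box. Whole Arabidopsis thaliana seedlings in long days (16 h light and 8 h dark) at 21 °C were sampled 7 days after germination, and total RNA was read on 7 one-colour arrays. The groups were soc1-101D, a gain-of-function mutant in the Col background that flowers early (3 arrays), soc1-2, a late-flowering knock-out in the Col background (1 array), and Col, the wild type (3 arrays). Experiments 1, 2 and 3 each held 1 soc1-101D array and 1 Col array, and the soc1-2 array belonged to experiment 3. Each mutant is a single line here, no agent was applied to any group, and the labels do not say how many seedlings were pooled.

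Jasmonate is made from a fatty acid of the chloroplast membrane. Lipoxygenases such as LOX2 oxygenate the fatty acid, AOS (allene oxide synthase, a cytochrome P450 enzyme) acts on the product, and later steps finish in the peroxisome. The active conjugate is perceived by the receptor COI1, which removes JAZ repressors and frees transcription factors. MYC factors drive the wound-type response with VSP1 and VSP2, vegetative storage proteins with acid phosphatase activity, as its usual markers, while ERF factors, acting with ethylene, drive the pathogen-type response marked by the antifungal defensin PDF1.2. The genes of synthesis, LOX2 and AOS among them, are known to be induced by jasmonate itself, so their transcripts serve as readouts of the pathway too.

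Each array was scaled to a common median of 192.69, and 0.1 times that median (19.27) was added before log2 was taken. Differences, and the folds made from them, are on this log2(signal + 19.27) scale, so the change of a dim gene is understated. Folds between experiments are instead plain ratios of scaled signal. A filter took away the dimmest 40% of probe sets by mean, and 13648 were tested with limma, with genotype and experiment as terms. PDF1.2, with a mean log2 value of 6.54 against the filter at 7.06, was left out as dim, so 4 of the 5 probe sets were tested. Over the tested probe sets, r was 0.954 to 0.983 between arrays of 1 experiment and 0.824 to 0.929 between those of different experiments. The gene table named no probe set for SOC1, so the genotypes rest on the labels. Green-tissue genes were bright on all arrays (RCA, the activase of the carbon-fixing enzyme, read 21958 to 30387), as was the root gene PYK10 (13114 to 22022). None of the 3 green-tissue and 4 root genes tested passed in soc1-101D, and seed and flower markers were not analysed here.

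The first comparison asked what SOC1 gain of function did to these genes. In soc1-101D seedlings AT1G52000 fell, AOS and LOX2 were below Col in all 3 experiments without passing the test, and VSP was above Col in all 3 experiments without passing it. Of the 4 tested probe sets, 1 passed at an adjusted p under 0.05. Over all tested probe sets 0.542% passed in either direction and 0.271% passed as lower. All 4 had an unadjusted p under 0.05, as did 11.0% of all tested probe sets. Of the 4, 3 lay below Col in all 3 experiments, as did 18.3% of all tested probe sets, and 1 lay above in all 3, as did 14.5%. With 4 probe sets these shares are a description only.

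**Figure D1:**
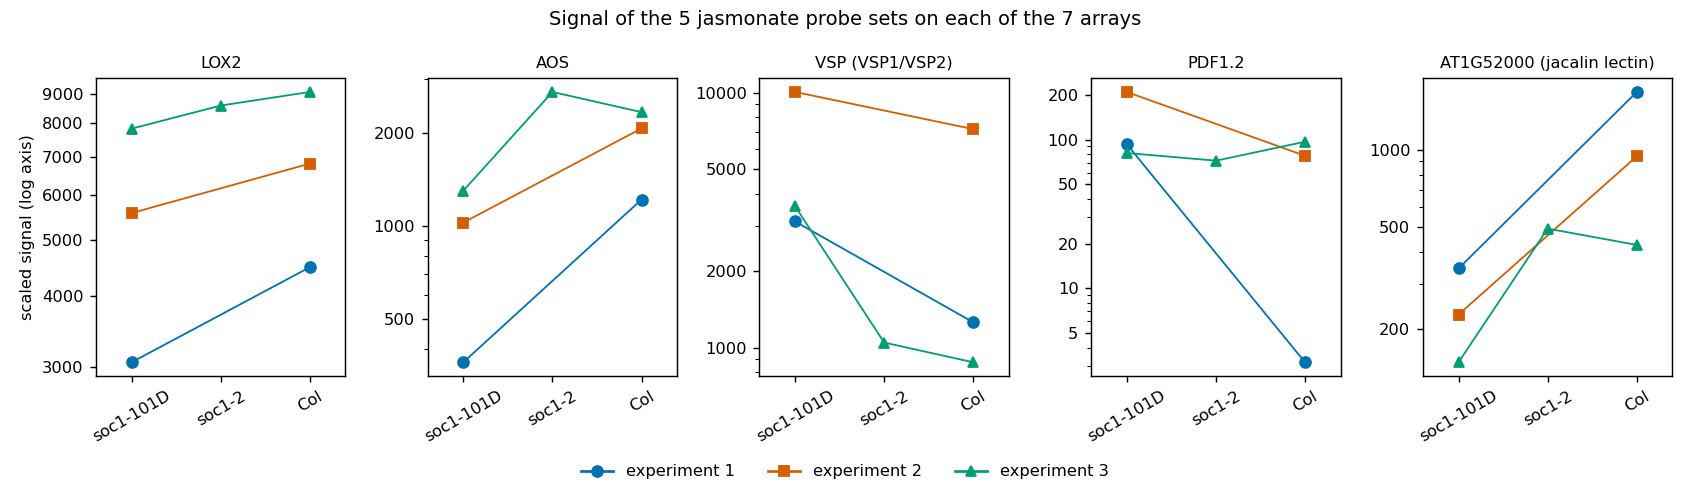
Scaled signal (log axis) of the 5 probe sets on the soc1-101D, soc1-2 and Col arrays. Each point is 1 array, and lines join the arrays of 1 experiment. The 3 soc1-101D arrays of AT1G52000 (149 to 345) lie below all 3 Col arrays (426 to 1678), while the ranges of soc1-101D and Col overlap for the other 4.

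At the entry of the pathway, LOX2 read 3057, 5576 and 7832 in soc1-101D of experiments 1, 2 and 3, against 4483, 6804 and 9079 in Col. The soc1-101D array was the lower one in each experiment, but the 2 groups overlapped widely. The log2 differences were −0.55, −0.29 and −0.21, with a limma estimate of −0.35 ± 0.15 (SE, 3 pairs), or 1.27-fold lower. It did not pass (limma adjusted p = 0.451).

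AOS, the next enzyme, read 363, 1028 and 1304 in soc1-101D of experiments 1, 2 and 3, against 1221, 2073 and 2340 in Col. Each soc1-101D array was well below the Col array of its own experiment, and the highest soc1-101D value exceeded the lowest Col value. The log2 differences were −1.70, −1.00 and −0.83, with a limma estimate of −1.18 ± 0.19, or 2.26-fold lower. AOS lay just outside the threshold (limma adjusted p = 0.0586). It passed in 4 of 10 alternatives. These were the larger pseudocount, an intensity trend in the variance, and leaving out experiment 2 or experiment 3 (limma adjusted p = 0.0132, 0.00982, 0.0407 and 0.0425). Without experiment 1, where the difference was largest, the estimate was −0.92 and AOS did not pass (limma adjusted p = 0.158). Nor did it pass with no filter (limma adjusted p = 0.497). Over all alternatives the limma adjusted p ranged from 0.00982 to 1.00.

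The storage protein genes read by VSP differed in the other direction. VSP read 3125, 10071 and 3589 in soc1-101D of experiments 1, 2 and 3, against 1256, 7196 and 875 in Col. Experiment 2 was high in both genotypes, so the groups overlapped although soc1-101D was the higher one in each experiment. The log2 differences were 1.3, 0.48 and 2.01 (SD 0.76), with a limma estimate of 1.27 ± 0.27, or 2.4-fold higher.

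VSP did not pass (limma adjusted p = 0.115, over the alternatives from 0.00797 to 1.00), and it passed in 3 of 10 alternatives. It passed with the larger pseudocount and with an intensity trend in the variance (limma adjusted p = 0.0392 and 0.0297). It also passed without experiment 2, where the difference was smallest, with an estimate of 1.66 (limma adjusted p = 0.00797). Without experiment 3 it was 0.89 (limma adjusted p = 0.193).

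The defensin gene PDF1.2, marker of the ERF branch, was dim throughout. It read 93.1, 209 and 81.3 in soc1-101D of experiments 1, 2 and 3, against 3.18, 77.8 and 96.7 in Col. The Col value of experiment 1 lay below the pseudocount, and in experiment 3 the soc1-101D array was the lower one. The log2 differences were 2.32, 1.23 and −0.21. A limma fit to all 22746 probe sets gave 1.12 ± 0.50 (limma adjusted p = 0.697), and the size depended on the pseudocount: it was 1.58 at 4.82 and 0.61 at 77.1.

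AT1G52000 encodes a lectin with jacalin-type sugar-binding domains. It read 345, 228 and 149 in soc1-101D of experiments 1, 2 and 3, against 1678, 942 and 426 in Col. All 3 soc1-101D arrays were below all 3 Col arrays. Of all tested probe sets, 2.42% had all 3 soc1-101D arrays below the 3 Col arrays. The log2 differences were −2.22, −1.96 and −1.41 (SD 0.42), and by limma p AT1G52000 ranked 13 of 13648 (estimate −1.86 ± 0.19, limma adjusted p = 0.0113). The call was kept in 8 of 10 alternatives. It was lost with no filter on dim probe sets (limma adjusted p = 0.456) and without the experiment block (limma adjusted p = 1.00).

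**Figure D2:**
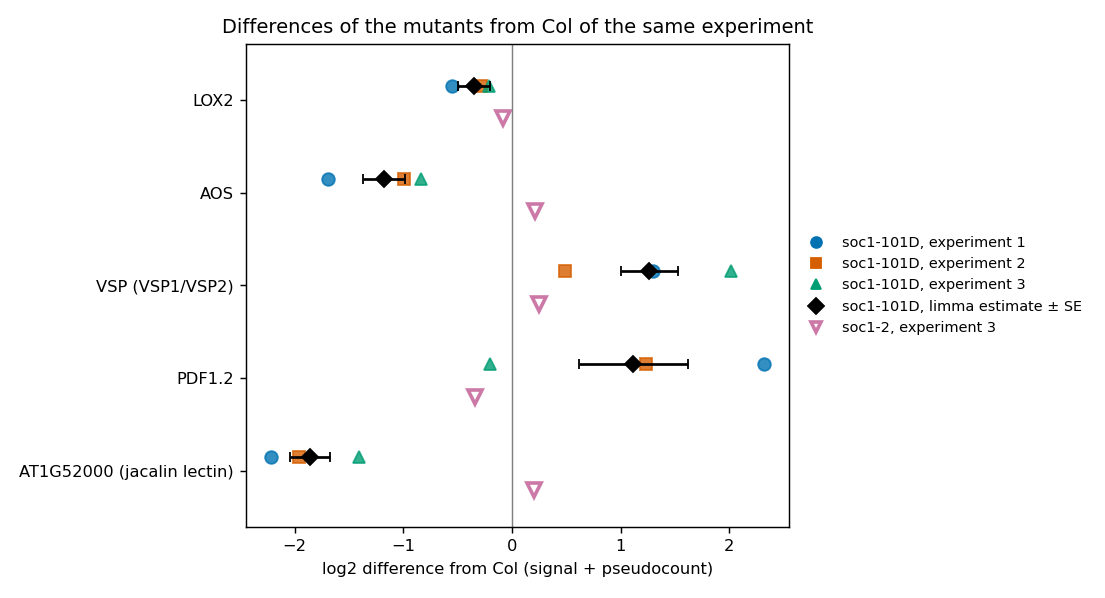
Log2 differences of soc1-101D from Col in each of the 3 experiments (filled symbols), the limma estimate with its SE (black diamonds), and the plain difference of the soc1-2 array from Col of experiment 3 (open triangles). For LOX2, AOS and AT1G52000 all 3 soc1-101D points lie below 0, for VSP all 3 lie above it, and the soc1-2 points lie between −0.34 and 0.25.

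The second comparison asked what loss of SOC1 did. On the soc1-2 array the 5 probe sets stayed near the Col array of experiment 3, and 0 of the 4 tested ones reached a 2-fold difference. Of all tested probe sets 0.813% did, 0.674% as higher and 0.139% as lower. With 1 soc1-2 array these plain differences have no replicate check and carry no p.

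LOX2 read 8595 on the soc1-2 array, against 9079 in Col of experiment 3 (log2 difference −0.08). AOS read 2720, against 2340 (0.22). It stood above all 3 Col arrays, but those of experiments 1 and 2 (1221 and 2073) read lower than that of experiment 3. How many of all probe sets stood above all 3 Col arrays was not counted. VSP read 1046, against 875 (0.25), a value within the range of the Col arrays. PDF1.2 read 72.2, against 96.7 (−0.34), also within that range. AT1G52000 read 493, against 426 (0.20), again within it.

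In the limma fit, which assumes that the lone array varies like the other pairs, 0 of the 4 passed, as did 0% of all tested probe sets, where 387 had an unadjusted p under 0.05. None of the 4 had an unadjusted p under 0.05, which 2.84% of all tested probe sets had. The fitted coefficients were −0.15 ± 0.24 for LOX2, 0.04 ± 0.31 for AOS, −0.12 ± 0.42 for VSP and −0.03 ± 0.29 for AT1G52000 (limma SE). For VSP and AT1G52000 the fitted and plain values differ in sign, since the fit takes the level of experiment 3 from its soc1-101D array as well as from its Col array.

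The series title sets the 2 mutants against each other, and experiment 3 holds both. AT1G52000 read 493 in soc1-2 and 149 in soc1-101D (3.05-fold higher in soc1-2), and AOS read 2720 and 1304 (2.07-fold higher). VSP read 1046 in soc1-2 and 3589 in soc1-101D (3.39-fold lower in soc1-2). LOX2 and PDF1.2 differed by log2 values of 0.13 and −0.14.

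Thus 3 of the 4 tested probe sets differed at least 2-fold between the mutants in experiment 3, where 1.73% of all tested probe sets did so, with 1.17% at least 2-fold higher in soc1-2 and 0.564% at least 2-fold lower. This comparison and that of soc1-101D with Col have 1 soc1-101D array in common, that of experiment 3. A limma test of the difference between the mutants, added after the data had been seen, takes its spread from the other arrays, since soc1-2 has 1 array. It passed none of the 4: the estimates were 1.84 ± 0.29 for AT1G52000 (limma adjusted p = 0.126), 1.22 ± 0.31 for AOS (limma adjusted p = 0.424), −1.39 ± 0.42 for VSP (limma adjusted p = 0.56) and 0.20 ± 0.24 for LOX2 (limma adjusted p = 1.00). In that test 0.0513% of all tested probe sets passed.

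The mean signal of AOS was 2720 in soc1-2, 898 ± 483 in soc1-101D and 1878 ± 584 in Col (SD, 3 arrays in soc1-101D and Col), so that soc1-101D stood lowest. For AT1G52000 the values were 493 in soc1-2, 241 ± 98.7 in soc1-101D and 1016 ± 629 in Col, again with soc1-101D lowest. For VSP they were 1046 in soc1-2, 5595 ± 3883 in soc1-101D and 3109 ± 3544 in Col, with soc1-101D highest. For LOX2 they were 8595 in soc1-2, 5488 ± 2388 in soc1-101D and 6789 ± 2298 in Col, and for PDF1.2 72.2, 128 ± 70.6 and 59.2 ± 49.5. Only the step between soc1-101D and Col for AT1G52000 passed a test, and the soc1-2 level is that of experiment 3 alone. Beside the Col array of experiment 3, soc1-2 was higher for AT1G52000 and VSP (Col 426 and 875). It was lower there for LOX2 and PDF1.2 (Col 9079 and 96.7). For these genes that is the reverse of its place beside the Col means.

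These genes also differed between the experiments. All 4 tested probe sets passed the test of the experiment term (limma moderated F, adjusted p from 0.00272 to 0.00661). So did 51.6% of all tested probe sets, so this is common on these arrays. The labels do not say what an experiment number stands for beyond the shared baseline. Nothing in them names separate cultures of plants, so the p-values cover only the spread among these arrays, which can be technical.

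LOX2 and AOS were lowest in experiment 1 in both genotypes. The signal of experiment 3 over that of experiment 1 was 2.56-fold for LOX2 and 3.59-fold for AOS in soc1-101D, against 2.03-fold and 1.92-fold in Col. The limma estimates of experiment 3 over experiment 1 were 1.18 ± 0.18 for LOX2 and 1.36 ± 0.24 for AOS on the log2 scale. Both synthesis genes thus had the same experiment low in each genotype. This was not particular to them: OPCL1, AIM1, MYC3 and the root gene PYK10 were also lowest in experiment 1 in both genotypes. MYC4, ORA47 and AT5G05600 were not.

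VSP had another pattern, with experiment 2 far above the others. Its signal in experiment 2 was 2.81-fold that of experiment 3 in soc1-101D, against 8.22-fold in Col. The limma estimate of experiment 3 over experiment 2 was −2.25 ± 0.33. AT1G52000 was highest in experiment 1, with a signal 2.32-fold that of experiment 3 in soc1-101D and 3.94-fold in Col (limma estimate of experiment 3 over experiment 1, −1.52 ± 0.23).

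**Figure D3:**
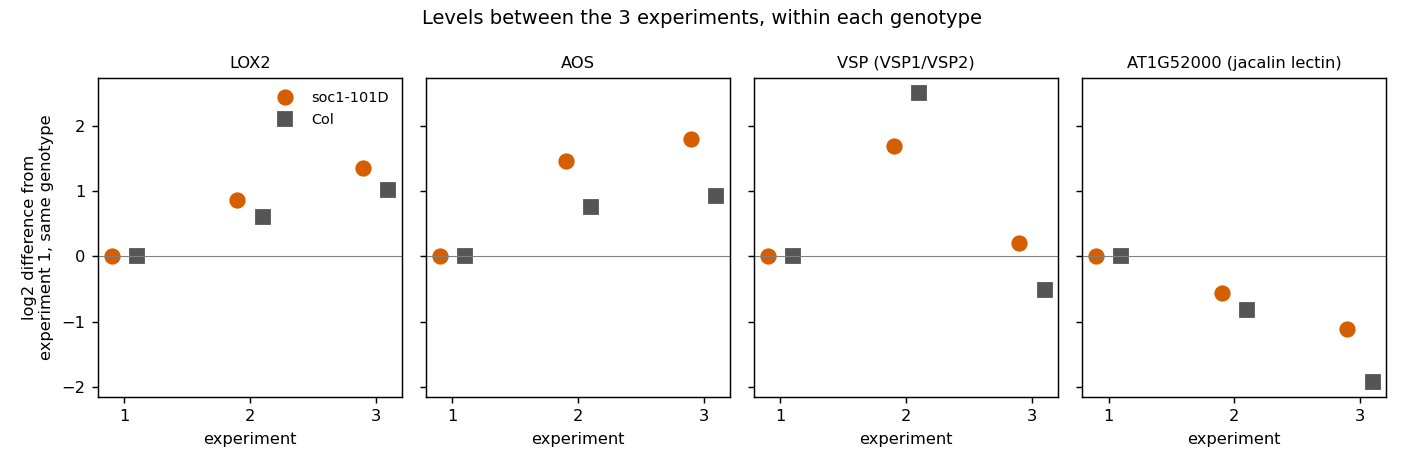
Log2 values of the 4 tested probe sets in experiments 1, 2 and 3, each relative to experiment 1 of the same genotype (circles soc1-101D, squares Col, 1 array per point). LOX2 and AOS are lowest in experiment 1, VSP is highest in experiment 2 and AT1G52000 is highest in experiment 1, in both genotypes.

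Other genes of the pathway were taken from 6 lists of 81 genes, without the genes already described. The gene table named 14 of them on the array, and 6 were bright enough to be tested. None of the 6 passed in soc1-101D, where 0.542% of all tested probe sets did. Of the 6, 2 had an unadjusted p under 0.05, as did 11.0% of all tested probe sets. The median log2 difference of the 6 was −0.03, against −0.02 over all tested probe sets. The repressor list (COI1, the JAZ genes and their partners) had 0 of 16 genes named, so the repressors were not analysed here.

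Among synthesis genes, OPCL1, which activates the jasmonate precursor for peroxisomal shortening, read 280, 562 and 451 in soc1-101D of experiments 1, 2 and 3, against 317, 448 and 414 in Col. Its estimate was 0.09 ± 0.16 (limma adjusted p = 0.903). AIM1, a peroxisomal beta-oxidation enzyme, was at −0.10 ± 0.15 (limma adjusted p = 0.884). AOS thus had a larger estimate than either of the later synthesis genes tested, a contrast that was not itself tested.

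Of the regulators, MYC3 was at 0.03 ± 0.15 and MYC4 at −0.58 ± 0.17 (limma adjusted p = 0.97 and 0.259). MYC4 read 272, 199 and 320 in soc1-101D of experiments 1, 2 and 3, against 550, 293 and 388 in Col, lower in each experiment. AT5G05600, an oxidase that inactivates jasmonic acid and is itself induced by it, was at −0.48 ± 0.16 (limma adjusted p = 0.313) and also lower in each experiment. Of all tested probe sets 18.3% lay below Col in all 3 experiments. ORA47, an AP2/ERF factor that promotes jasmonate synthesis genes, read 214, 197 and 158 in soc1-101D of experiments 1, 2 and 3, against 88.3, 281 and 97.1 in Col. Its estimate was 0.42 ± 0.28 (limma adjusted p = 0.662).

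On the soc1-2 array ORA47 was the 1 gene of the 6 at least 2-fold away from Col, at 375 against 97.1 in Col of experiment 3 (3.39-fold higher, log2 difference 1.76). The other 5 lay between −0.38 (MYC4) and 0.51 (OPCL1), and LOX2 and AOS on the same array differed from Col by −0.08 and 0.22. Of all tested probe sets 0.813% were at least 2-fold away from Col on this array, which has no replicate. ORA47 itself read from 88.3 to 281 over the 3 Col arrays.

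The jacalin lectin family gave a second frame for AT1G52000. Besides it, 8 of 42 listed family members were tested, and none passed in soc1-101D, where 0.542% of all tested probe sets did. Of the 8, 1 had an unadjusted p under 0.05, as did 11.0% of all tested probe sets. The median log2 difference of the 8 was −0.25, with a range from −0.77 to 0.23. The 4 with the nearest locus numbers, AT1G52100, AT1G52050, AT1G52060 and AT1G52070, were at −0.77 ± 0.37, −0.23 ± 0.16, 0.13 ± 0.18 and 0.19 ± 0.17 (limma adjusted p = 0.513, 0.686, 0.857 and 0.774). AT1G52100 was below Col in experiments 1 and 2 (−1.78 and −1.02) and above it in experiment 3 (0.49). JAL33, JAL22, JAL34 and AT2G25980 were at −0.45 ± 0.17, −0.39 ± 0.17, −0.28 ± 0.17 and 0.23 ± 0.15. Family members share sequence, and cross-hybridisation between them was not tested. On the soc1-2 array the 8 differed from Col by 0.14 to 0.58, the highest being AT1G52070. None reached 2-fold, as 0.813% of all tested probe sets did.

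**Figure D4:**
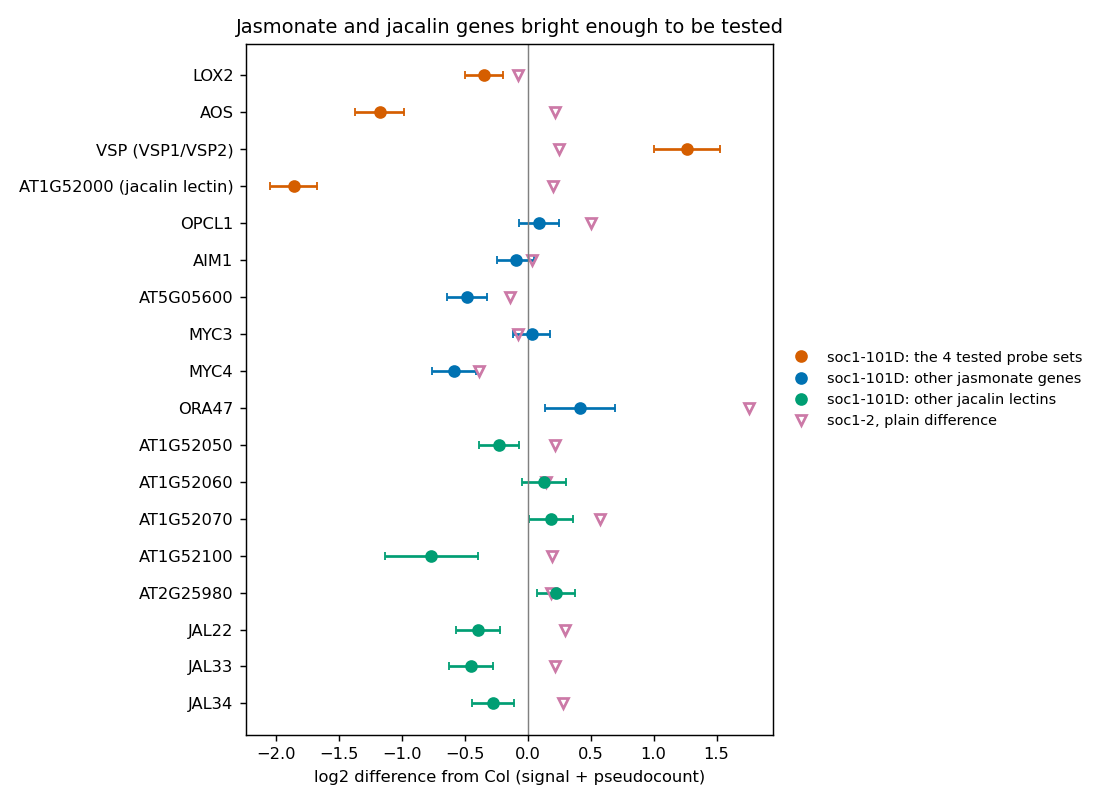
Log2 differences from Col of the 4 tested probe sets (orange), the 6 other tested jasmonate genes (blue) and the 8 other tested jacalin lectins (green) in soc1-101D, as limma estimates with SE. Open triangles give the plain soc1-2 difference. Apart from AT1G52000, AOS and VSP, every soc1-101D estimate lies between −0.77 and 0.42, and ORA47 has the highest soc1-2 value (1.76).

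The named genes most like each probe set were taken by Pearson r of log2 values over the 7 arrays, among up to 7276 tested probe sets with 1 gene. These r values were the highest over all of these and include the differences between experiments, so they describe likeness only. For LOX2 they were AT5G19960, AT4G08790 and AT1G77250 (r = 0.994, 0.994 and 0.99). For AOS they were AT5G40910, AT1G25230 and AT1G07280 (r = 0.989, 0.987 and 0.975), which differed from Col in soc1-101D by −0.67, −1.10 and −1.66.

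For VSP they were AT1G19960, AT5G56610 and ATSBT5.2 (r = 0.986, 0.986 and 0.978). For PDF1.2 they were AT2G45010, AT4G01870 and AT5G47070 (r = 0.988, 0.984 and 0.957). For AT1G52000 they were AT4G27450, AT2G28810 and AT4G14900 (r = 0.992, 0.986 and 0.976), which differed from Col in soc1-101D by −1.23, −0.37 and −0.93 (limma adjusted p = 0.0204, 0.381 and 0.106). None of these 15 is on the jasmonate lists, but only 6 other genes of those lists were among the probe sets compared. LOX2, AOS and VSP could not appear, since the gene table did not name them. The likeness of these genes to the rest of the pathway was therefore not tested.

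With the mean of each experiment taken away, so that only genotype differences within experiments remain, other genes came first. Experiments 1 and 2 then each give a pair of mirrored values, so fewer than 7 values are independent. These r values were again the highest over all genes compared, so they describe likeness only. SMZ, an AP2-type floral repressor gene, was the most like AT1G52000 (r = 0.997 over the 7 arrays), followed by AT5G14540 and AT3G11420 (r = 0.995 and 0.994). SMZ fell in soc1-101D (−1.52, limma adjusted p = 0.0279) and was at 0.22 on the soc1-2 array, while AT5G14540 and AT3G11420 were at −0.13 and −0.50 in soc1-101D (limma adjusted p = 0.81 and 0.249). For AOS the genes were AT2G33630, AT2G46490 and AT5G56240 (r = 1.00, 1.00 and 0.999), all with small differences in soc1-101D (−0.25, −0.19 and −0.30). For LOX2 they were AT5G18590, AT1G63490 and AT4G22750, for VSP AT1G03400, AT1G02750 and ACA.l, and for PDF1.2 AT4G12770, AT2G03510 and AT4G16800 (r from 0.992 to 0.999 for these 9).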

How the data were processed

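The deposited table holds linear intensities, 1 for each probe set on each array. The sources used here give no software, genome build or annotation for the authors' values. Array values had a 2% trimmed mean of 495.5 to 496.2, as after scaling of whole arrays, and array medians were 178.8 to 206.8. The number of arrays limits the precision. No column of other samples was present.

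Values were scaled, logged and filtered as given above. The limma 3.58.1 fit (lmFit and eBayes, R 4.3.3) had genotype and experiment as fixed terms on all 7 arrays. It had 2 residual and 5.62 prior degrees of freedom. The code was run on data simulated from this same fit, which cannot show how it does where its assumptions fail. Benjamini-Hochberg adjustment ran over 13648 probe sets. The experiment number is a block because the labels pair each mutant array with its own experiment's Col array; deviations of paired arrays correlated at r = 0.849, 0.739 and 0.821.

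The gene table named 13513 probe sets with 1 gene, 503 with several and 8730 with none; 13436 were matched to RefSeq (TAIR10.1) for symbols. Sequences were not used here. The 5 probe sets and all lists were chosen with earlier results of these data known. Named were the 5, up to 6 tested genes of each list by p and up to 4 by soc1-2 difference, and the 3 genes most like each by 2 measures. Alternatives changed the pseudocount, scaling, filter, block and variance prior or left out an experiment. Figures were drawn with matplotlib 3.10.9.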

Additional observations from a re-analysis of the deposited data

How the results depend on the processing

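The direction of all 5 probe sets in soc1-101D was kept in every alternative run. The count of those that passed (1) was 3 with a pseudocount of 0.4 times the median, 3 with an intensity trend and 1 to 3 without 1 experiment. It was 0 with no filter (3 at an unadjusted p under 0.05) and 0 with no replicate block (2 unadjusted). All 4 stayed past the experiment term in each alternative but no filter (0, with 4 unadjusted) and the fits without 1 experiment (2 to 4).

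Over all probe sets, limma calls in soc1-101D (74) were 49 and 159 with a pseudocount of 0.025 and 0.4 times the median, 19 with quantile normalization, 170 with a trend, 26 to 129 without 1 experiment, 0 with no filter (1714 at an unadjusted p under 0.05) and 0 with no replicate block (222 unadjusted). The soc1-2 fit (0) gave 10 with the larger pseudocount, 6 with a trend and 0 to 26 without experiment 1 or 2. The test between the mutants, chosen after seeing the data (7), gave 30 with the larger pseudocount, 1 with quantile normalization, 3 with no rescaling, 33 with a trend, 13 to 55 without experiment 1 or 2, 0 with no filter (1058 unadjusted) and 0 with no replicate block (147 unadjusted). Calls for the experiment term (7044) were 2317 with no filter and 3536 to 6113 without 1 experiment. The cause of these changes was not tested. Without experiment 3 no soc1-2 array remains, so the soc1-2 fits were not run there.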

Other observations

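Some genes of the lists were too dim to be tested, and those shown here were chosen after their values had been seen. PDF1.2b, a near copy of the defensin gene PDF1.2, read 146, 178 and 53.0 in soc1-101D of experiments 1, 2 and 3, against 70.9, 19.6 and 67.9 in Col. Like PDF1.2 it was higher in soc1-101D of experiments 1 and 2 and lower in that of experiment 3 (log2 differences 0.88, 2.35 and −0.27). The limma fit to all probe sets gave 0.98 ± 0.52 (limma adjusted p = 0.733). Cross-hybridisation between these probe sets was not tested, so PDF1.2b is not a separate check on PDF1.2. THI2.1, the remaining ERF-branch gene named on the array, was also dim and had an estimate of the other sign. Its log2 differences were −0.40, 0.19 and −0.99, and the same fit gave −0.40 ± 0.27 (limma adjusted p = 0.778).

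JAL23, a jacalin lectin gene, had differences opposite in sign to those of AT1G52000. It read 242, 214 and 78.2 in soc1-101D of experiments 1, 2 and 3, against 103, 68.8 and 26.6 in Col, and 48.7 on the soc1-2 array. The log2 differences of soc1-101D were 1.10, 1.41 and 1.09, with an estimate of 1.2 ± 0.16 in the limma fit to all probe sets (limma adjusted p = 0.479). Each soc1-101D array was above the Col array of its experiment, as for 14.5% of all tested probe sets, and the groups overlapped. JAL23 had the highest estimate of the jacalin genes too dim to be tested. The others ran from −0.49 (AT3G21380) to 0.67 (AT1G73040) in the same fit.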
